A study of Homo sapiens with 4 samples.

Results

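The genes described here are 40 that act in G2 and mitosis, the phases in which a cell that has copied its DNA prepares to divide, separates its chromosomes and splits. They were chosen by name from the gene names of the deposited table, and all 40 were found among its 56753 loci. For 38 of them the locus names that gene alone. BUB1B shares a locus with PAK6 and CENPA shares one with SLC35F6, so those values sum 2 genes and are given apart from the rest. RNA-seq on total RNA had compared 786-O cells, an established human line of clear cell renal carcinoma, that carried stably either a control vector (2 libraries) or PRDM16 delivered by lentivirus (2 libraries). All cells were grown as adherent cultures under standard conditions, and the comparison asks how PRDM16, a zinc finger regulator of transcription, affects the transcriptome. Whether the replicates came from separate cultures, and how many clones they carried, is not stated in the labels, so the p-values reflect a spread between libraries that could be purely technical. Gene coordinates are from GENCODE release 29 on GRCh38.

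Entry into mitosis is driven by the kinase CDK1 bound to B-type cyclins, and exit from it by the anaphase-promoting complex (APC/C), which marks cyclins and the separase inhibitor securin for destruction. Most genes of this set are transcribed in a wave in G2 by the MuvB complex together with B-MYB (MYBL2) and FOXM1, and are kept silent in resting and G1 cells by the DREAM complex, which also contains MuvB. MuvB reads a promoter element called the cell cycle homology region, and the factor NF-Y reads CCAAT boxes that often lie upstream of it. In a growing cell line the summed level of these RNAs is widely read as a measure of how many cells are passing through G2 and mitosis.

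Promoter windows of 4 members are printed as examples. They are the 4 members with the highest mean level among those whose locus names 1 gene and whose window holds a cell cycle homology region. The presence of that region was thus fixed by the choice. The order and spacing of the elements within a window were not counted over the set. The windows run from 250 bases before to 50 bases after the annotated start, are taken from RefSeq on GRCh38.p14 and read 5′ to 3′ on the gene's strand. Capitals mark each match, on either strand, to TTTGAA (the common form of the cell cycle homology region), TTCGAA (its less common form) or CCAAT.
PRC1, chr15:90994486-90994785, minus strand: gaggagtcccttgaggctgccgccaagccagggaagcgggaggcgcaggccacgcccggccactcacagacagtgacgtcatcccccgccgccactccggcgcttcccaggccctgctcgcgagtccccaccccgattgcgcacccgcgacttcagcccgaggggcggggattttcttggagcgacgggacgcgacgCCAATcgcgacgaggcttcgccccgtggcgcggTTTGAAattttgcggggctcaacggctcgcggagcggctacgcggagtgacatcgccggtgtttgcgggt
CDC20, chr1:43358731-43359030, plus strand: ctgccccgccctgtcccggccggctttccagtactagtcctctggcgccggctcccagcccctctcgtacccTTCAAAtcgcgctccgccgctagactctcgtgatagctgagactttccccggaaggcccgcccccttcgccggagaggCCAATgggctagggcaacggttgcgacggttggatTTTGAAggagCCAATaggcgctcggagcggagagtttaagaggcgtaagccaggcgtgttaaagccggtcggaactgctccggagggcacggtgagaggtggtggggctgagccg
PLK1, chr16:23678639-23678938, plus strand: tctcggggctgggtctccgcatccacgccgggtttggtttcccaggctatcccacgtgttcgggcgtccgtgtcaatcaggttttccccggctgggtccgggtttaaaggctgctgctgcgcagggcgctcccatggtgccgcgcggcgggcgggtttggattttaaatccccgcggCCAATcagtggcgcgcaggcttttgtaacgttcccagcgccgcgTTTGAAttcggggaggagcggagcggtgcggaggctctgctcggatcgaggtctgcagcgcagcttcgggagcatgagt
NUSAP1, chr15:41332631-41332930, plus strand: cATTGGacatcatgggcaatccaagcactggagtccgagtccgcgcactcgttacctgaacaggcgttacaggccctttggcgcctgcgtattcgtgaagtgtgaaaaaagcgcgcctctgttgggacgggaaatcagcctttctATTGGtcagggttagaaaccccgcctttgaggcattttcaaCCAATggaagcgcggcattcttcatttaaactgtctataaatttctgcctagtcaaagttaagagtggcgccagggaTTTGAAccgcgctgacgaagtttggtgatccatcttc

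With the annotated start counted as base 0, the TTTGAA match on the gene's own strand began at base -20 in PRC1, -65 in CDC20, -29 in PLK1 and 13 in NUSAP1. A CCAAT match on that strand began at -53 in PRC1, at -100 and -55 in CDC20, at -73 in PLK1 and at -64 in NUSAP1. RefSeq windows were found for 34 of the 40 members, several with more than 1 start, giving 44 windows. At least 1 window held TTTGAA or TTCGAA in 26 of the 34 genes (76.5%), against 19.5% of the 27305 symbols in the promoter table. CCAAT was found in 27 of the 34 (79.4%), against 39.7%, and both elements in 22 (64.7%), against 7.85%. For a cell cycle homology region within 50 bases of a start the counts were 22 of 34 (64.7%) and 6.41%. Among genes of DNA replication and S phase, 2 of 21 genes with a window held TTTGAA or TTCGAA, and 15 held CCAAT. A match describes the letters only and is no measure of binding.

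**Figure D1:**
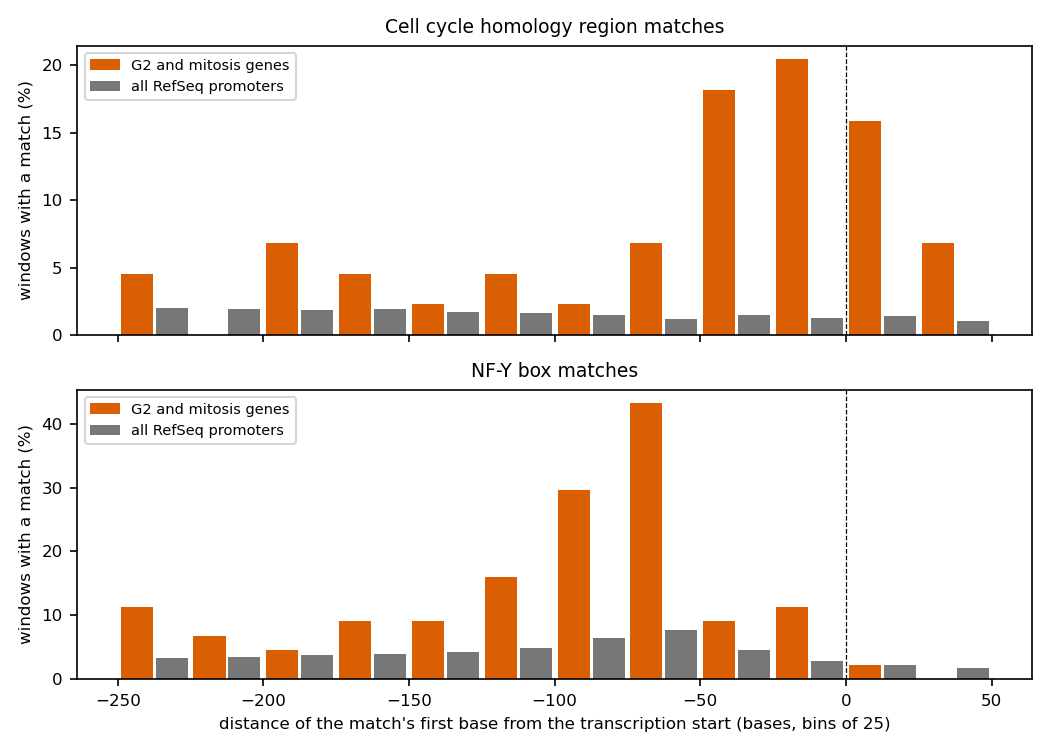
Share of promoter windows (%) with a match to the cell cycle homology region (upper panel) or to the box read by NF-Y (lower panel) in bins of 25 bases, by distance of the match's first base from the transcription start; orange bars are the 44 windows of the G2 and mitosis genes and grey bars all 35116 RefSeq windows. In the orange bars the first kind of match peaked in the bin from -25 to 0 (20.5% of windows) and the second in the bin from -75 to -50 (43.2%), while the tallest grey bar reached 7.62%.

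The libraries carried the construct their labels name, and 1 control library stood apart. PRDM16 was 0.0157 and 0.234 FPKM (fragments per kilobase, corrected for library size) in the control vector libraries and 1226 and 1146 FPKM in the PRDM16 libraries. Of 7 markers of the renal epithelial origin, 5 of the 6 in loci of 1 gene were at a mean of at least 1 FPKM, with PAX8 between 169 and 208 FPKM, while LHX1 was at or below 0.256 FPKM in all 4 libraries. The summed level of 5 leukocyte markers was 0.192 to 0.280 FPKM per library and that of 5 endothelial markers 0.342 to 0.435 FPKM, with CD3E at 0 throughout. For 5 fibroblast markers the sum was 4.42 to 4.86 FPKM, mostly COL1A1 and LUM, with DCN at 0. PDGFRB was 0.296 and 1.26 FPKM in the control vector libraries and 0.399 and 0.498 FPKM in the PRDM16 libraries, highest in control vector replicate 2. Relative depth, read from the smallest values, was 1.39 for control vector replicate 2, 1.26 for PRDM16 replicate 1 and 1.17 for PRDM16 replicate 2, with control vector replicate 1 at 1. Control vector replicate 2, the library that stood apart, was therefore the deepest, and the absolute depth is unknown.

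All 38 members were well expressed, and they were lower together in control vector replicate 2. Their median level was 56.7 FPKM in control vector replicate 1, 45.7 FPKM in control vector replicate 2, 56.2 FPKM in PRDM16 replicate 1 and 61.1 FPKM in PRDM16 replicate 2. The lowest member in every library was CDC25C and the highest UBE2C. Summed, the 38 made up 0.492% and 0.377% of all FPKM in the control vector libraries and 0.480% and 0.502% in the PRDM16 libraries. Control vector replicate 2 was the lowest of the 4 libraries for 36 of 38 members, CDC25B and CDC25C being the exceptions, against 38.7% of all 13246 loci with a mean of at least 1 FPKM. It was the lowest for 36 members after scaling to equal medians or by median of ratios, and for 35 after quantile normalization. In these bulk samples fewer cells in G2 and mitosis and less of each RNA per such cell cannot be told apart.

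The size of that gap differed between members. As a share of the mean of the other 3 libraries, the level in control vector replicate 2 had a median of 73.4% over the 38 members. It was lowest for the spindle motor gene KIF11 (57.4%), the transcription factor gene MYBL2 (60.8%), the proliferation marker MKI67 (61.2%) and the cyclin gene CCNA2 (61.7%). At the other end were the ubiquitin-conjugating enzyme gene UBE2C (83.7%), the kinetochore gene CENPF (85.5%) and the spindle gene HMMR (86.4%), with CDC25C at 103% and CDC25B at 119%. Among the other 3 libraries the highest level of a member exceeded its lowest by a median factor of 1.08, from 1.02 for BUB1 to 1.22 for CENPF. For members with a cell cycle homology region in a promoter window (n = 24) the median distance of control vector replicate 2 from the other libraries was -0.41 on the log2(FPKM + 1) scale (from -0.75 to 0.25), and for those with a window but no match (n = 8) it was -0.49 (from -0.71 to -0.26), so the ranges overlapped.

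Compared pair by pair, 3 libraries lay close and the 4th apart. The median difference over the 38 members, on the log2(FPKM + 1) scale, was -0.051 for PRDM16 replicate 1 minus control vector replicate 1 and 0.023 for PRDM16 replicate 2 minus control vector replicate 1. Between the PRDM16 libraries it was 0.077, replicate 2 minus replicate 1, with 30 members higher in replicate 2. The median over all loci was -0.0049 for that pair. Control vector replicate 2 minus control vector replicate 1 gave -0.44, with 37 of 38 members lower in replicate 2. Over all 13246 loci the same difference had a median of -0.024. The control libraries therefore differed from each other by more than either PRDM16 library differed from control vector replicate 1.

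**Figure D2:**
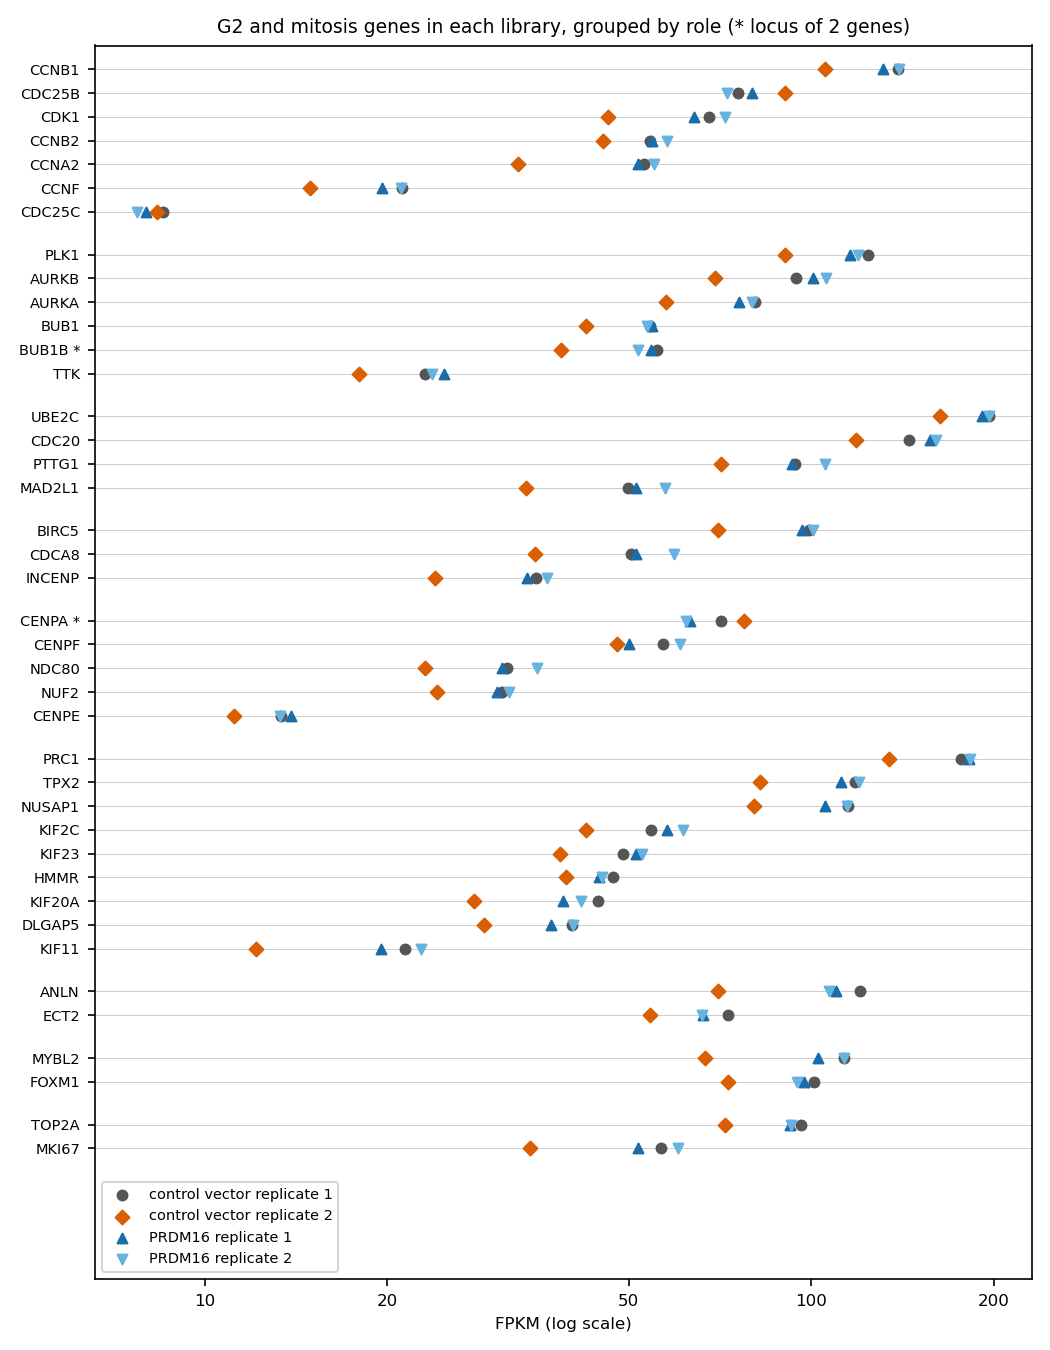
FPKM of each of the 40 genes (log axis) in the 4 libraries, grouped by role from cyclins at the top to MKI67 at the bottom; each point is 1 library and a star marks a locus of 2 genes. Control vector replicate 2 (orange diamonds) is the lowest point of every row except CDC25B, CDC25C and the CENPA locus, while the other 3 libraries lie within a factor of 1.22.

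Compared by group, the members were slightly higher in PRDM16 cells, and none passed the test. The mean log2 value was higher in PRDM16 for 36 of 38 members and lower for 2, where 50.7% of all tested loci were higher. The median log2 change was 0.21 (from -0.12 for CDC25B to 0.39 for MAD2L1), against 0.00399 over all tested loci. No member had a limma adjusted p under 0.05, where 0.0226% of loci did (PRDM16 among them), and none had an unadjusted p under 0.05, where 6.12% of loci did. Adjusted p ran from 0.689 to 0.878. The PRDM16 values were both above the pair of control vector values for 9 of 38 members, against 21.1% of loci, and below them for 1, against 20.3%, and the groups overlapped for the other 28. The share with both PRDM16 values higher was thus near that of the whole table. Control vector replicate 2 was the lowest library for 36 of 38 members, so for those both PRDM16 values could not lie below both controls. The smaller share with both lower therefore only restates that low library, and it was not tested.

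The excess of higher members rested on control vector replicate 2. Without that library 17 of 38 members were higher and 21 lower in PRDM16, and the median log2 change was -0.011. Over all tested loci in the same setting 6461 of 13246 were higher, with a median of -0.0037. Without control vector replicate 1 the median was 0.42, and 33 members had a limma unadjusted p under 0.05, all of them higher, where 15.7% of loci did. In that comparison no member passed after adjustment (smallest limma adjusted p = 0.13), and the lone control library was assumed to vary like the PRDM16 pair.

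**Figure D3:**
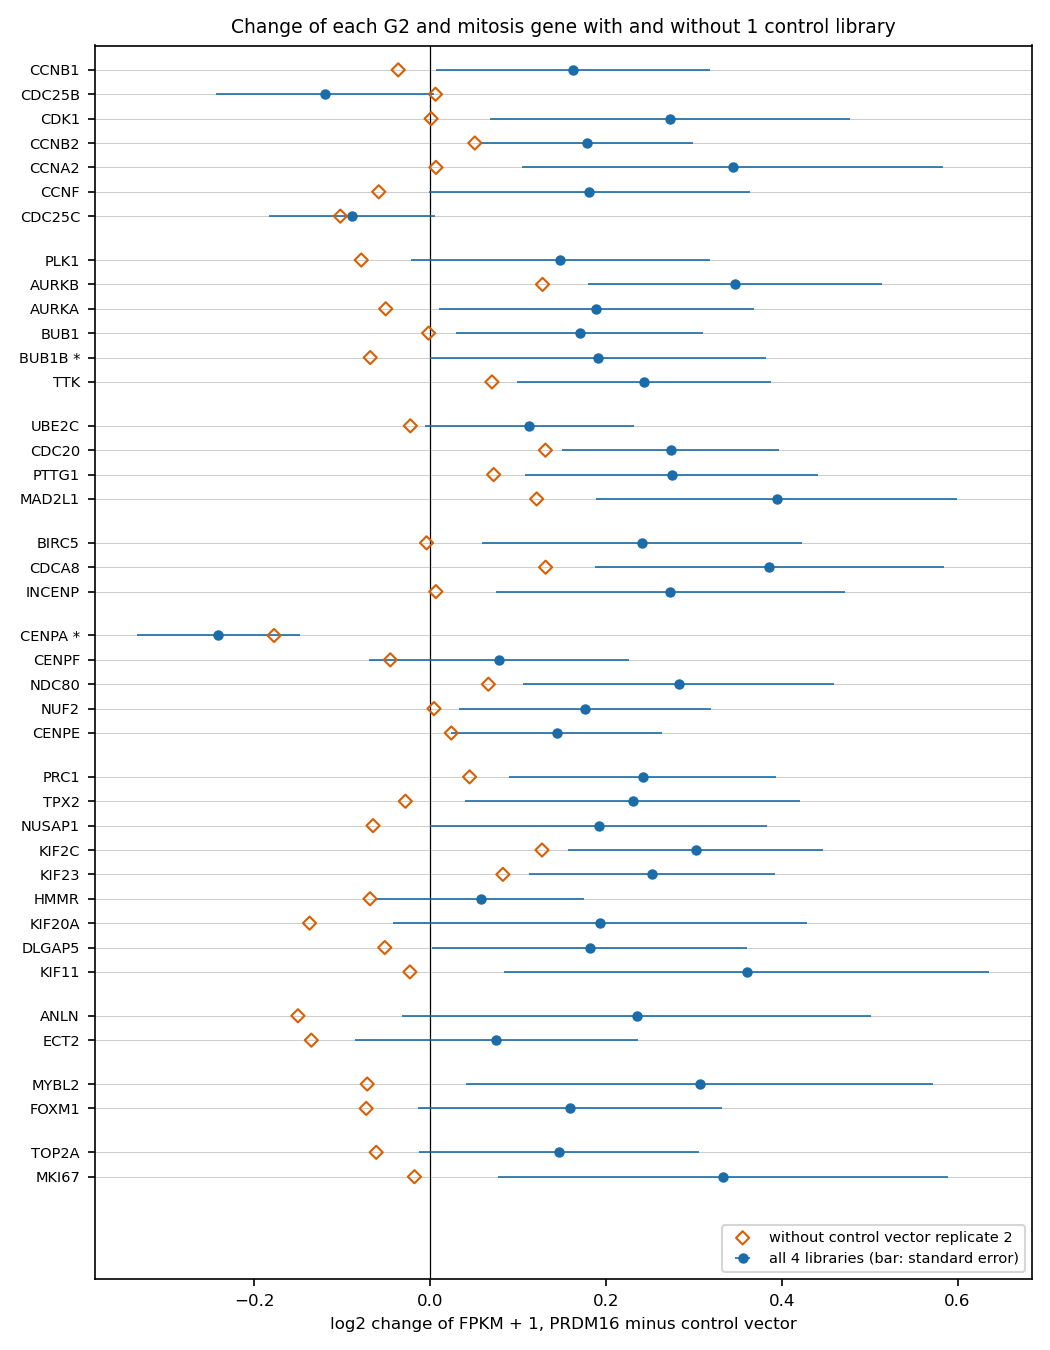
Log2 change of FPKM + 1 (PRDM16 minus control vector) for each of the 40 genes with all 4 libraries (filled circles, bars of 1 standard error) and without control vector replicate 2 (open diamonds); a star marks a locus of 2 genes. The circles have a median of 0.21 over the 38 genes in loci of their own and the diamonds a median of -0.011, between -0.15 and 0.13.

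With all libraries the cyclins and CDK1 were higher in PRDM16 on average, while the phosphatases that activate CDK1 were not. For CDC25B this contrast rested on control vector replicate 2. Without control vector replicate 2 the log2 change was 0.0013 for CDK1, -0.036 for CCNB1, -0.058 for CCNF, 0.051 for CCNB2 and 0.0063 for CDC25B. CDK1 was between 46.2 and 71.9 FPKM and CCNF between 14.9 and 21.2 FPKM, both with overlapping groups. CCNB1, the main mitotic cyclin (chromosome 5, 69167010 to 69178245, plus strand), was 139 and 105 FPKM in the control vector libraries and 131 and 139 FPKM in the PRDM16 libraries. Its groups overlapped, the only low value being that of control vector replicate 2, and the log2 change was 0.16 (SE 0.16, limma adjusted p = 0.729). CCNA2, the cyclin of S phase and G2 (chromosome 4, 121816444 to 121823933, minus strand), showed a wider gap, at 53.0 and 32.8 FPKM against 51.7 and 54.9 FPKM. The log2 change of CCNA2 was 0.34 (SE 0.24, limma adjusted p = 0.69), and 0.0068 without control vector replicate 2. CCNB2, a second B-type cyclin, was 54.2 and 45.3 FPKM against 54.6 and 57.8 FPKM, so that both PRDM16 values lay above both control values, by a narrow margin. CDC25B (chromosome 20, 3786772 to 3806121, plus strand), a phosphatase that starts CDK1 activation in G2, ran against most of the set when all libraries were used. It was 75.7 and 90.3 FPKM in the control vector libraries and 79.7 and 72.6 FPKM in the PRDM16 libraries, highest in the library where nearly all other members were lowest, with a log2 change of -0.12 (SE 0.12, limma adjusted p = 0.742). CDC25C, a related phosphatase and the least abundant member, was 8.53 and 8.36 FPKM against 8.01 and 7.74 FPKM. Both PRDM16 values of CDC25C were below both control values, a difference of -0.089 on the log2 scale that did not pass (limma adjusted p = 0.746) and was -0.10 without control vector replicate 2.

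Mitotic kinases followed the pattern of the cyclins, with 5 of 5 members in loci of their own higher on average and a median log2 change of 0.19. That median was -0.0016 without control vector replicate 2, with 2 of 5 higher. PLK1, which acts from mitotic entry to cytokinesis (chromosome 16, 23677656 to 23690367, plus strand), was 124 and 90.4 FPKM in the control vector libraries and 116 and 119.5 FPKM in the PRDM16 libraries. In PLK1 the highest of the 4 values was a control library, and without control vector replicate 2 the log2 change was -0.078. AURKB, the kinase of the chromosomal passenger complex (chromosome 17, 8204733 to 8210600, minus strand), was 94.3 and 69.3 FPKM against 101 and 106 FPKM. Both PRDM16 libraries were above both controls for AURKB, with means of 81.8 ± 17.7 FPKM without and 103 ± 3.71 FPKM with PRDM16 (SD, n = 2 each) and a log2 change of 0.35 (SE 0.17, limma adjusted p = 0.689). TTK, the kinase that starts the spindle checkpoint, was 23.1 and 17.9 FPKM against 24.8 and 23.7 FPKM, again with separate groups that differ little once control vector replicate 2 is set aside (log2 change 0.070). The locus of BUB1B, a checkpoint protein, and PAK6 was 55.7 and 38.6 FPKM against 54.5 and 51.8 FPKM. AURKA and BUB1 were between 42.5 and 80.6 FPKM in all libraries, and both had overlapping groups.

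Genes of the spindle checkpoint effector and of anaphase control (4 of 4 higher on average, median log2 change 0.27) held the highest level and the largest difference of the set. Leaving out control vector replicate 2, 3 of 4 were higher, with a median of 0.097. UBE2C, the enzyme that supplies ubiquitin to the APC/C (chromosome 20, 45812576 to 45816957, plus strand), was 196 and 163 FPKM in the control vector libraries and 191 and 196 FPKM in the PRDM16 libraries. Its 4 values were close, with a log2 change of 0.11 (SE 0.12, limma adjusted p = 0.745). CDC20, the APC/C activator of anaphase and a target of the checkpoint (chromosome 1, 43358955 to 43363203, plus strand), was 145 and 119 FPKM against 157 and 160.3 FPKM. Groups did not overlap for CDC20, which had means of 132 ± 18.4 FPKM without and 159 ± 2.45 FPKM with PRDM16 (SD, n = 2 each), a ratio of 1.20, and a log2 change of 0.27 (SE 0.12, limma adjusted p = 0.689). Without control vector replicate 2 the change was 0.13 for CDC20, CDCA8, AURKB and KIF2C alike, the highest values of the 38 members in that setting. MAD2L1, the checkpoint protein that holds CDC20 back (chromosome 4, 120055608 to 120067074, minus strand), had the largest change of the set. It was 49.8 and 33.8 FPKM against 51.3 and 57.4 FPKM, which gives a log2 change of 0.39 (SE 0.21, limma adjusted p = 0.689), or 0.12 without control vector replicate 2. PTTG1, which encodes securin, was between 70.8 and 105 FPKM with overlapping groups, and its near-identical copies PTTG2 and PTTG3P make its value uncertain.

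The subunits that accompany AURKB in the chromosomal passenger complex, which corrects faulty attachments of chromosomes to the spindle, were all higher on average (3 of 3, median log2 change 0.27). When control vector replicate 2 was left out, 2 of 3 were higher (median 0.0067). BIRC5, which encodes survivin (chromosome 17, 78214186 to 78225636, plus strand), was 98.9 and 70.1 FPKM against 96.6 and 101 FPKM, so that 3 libraries were close and control vector replicate 2 was the low value. CDCA8, which encodes borealin (chromosome 1, 37692418 to 37709719, plus strand), was 50.4 and 35.1 FPKM in the control vector libraries and 51.5 and 59.3 FPKM in the PRDM16 libraries. For CDCA8 both PRDM16 values were above both controls, though PRDM16 replicate 1 and control vector replicate 1 were close, and the log2 change was 0.39 (SE 0.20, limma adjusted p = 0.689). INCENP, the scaffold of the complex, ranged from 24.0 to 36.7 FPKM with overlapping groups.

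Centromere and kinetochore genes, whose products build the attachment site for spindle microtubules, had a median log2 change of 0.16 over the 4 in loci of their own. That median was 0.014 without control vector replicate 2. NDC80, the main microtubule-binding subunit (chromosome 18, 2571511 to 2616635, plus strand), was 31.5 and 23.1 FPKM in the control vector libraries and 30.9 and 35.2 FPKM in the PRDM16 libraries. The groups overlapped, and the log2 change was 0.28 (SE 0.18, limma adjusted p = 0.689). NUF2, its direct partner, was between 24.2 and 31.7 FPKM, the motor gene CENPE between 11.2 and 13.9 FPKM and CENPF between 47.8 and 60.8 FPKM. The locus that joins CENPA, the histone H3 variant of centromeres, to SLC35F6 (chromosome 2, 26764289 to 26801067, plus strand for CENPA) went the other way. It was 70.9 and 77.5 FPKM in the control vector libraries and 63.2 and 62.0 FPKM in the PRDM16 libraries, lower in both PRDM16 libraries, with a log2 change of -0.24 (SE 0.092, limma adjusted p = 0.689). How much of this value belongs to CENPA was not tested.

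Spindle motors and microtubule proteins were the largest group, with 9 of 9 members higher on average and a median log2 change of 0.23. With control vector replicate 2 left out, 3 of 9 were higher and the median was -0.028. PRC1, which bundles the midzone of the anaphase spindle (chromosome 15, 90966038 to 90995629, minus strand), was 176 and 134 FPKM in the control vector libraries and 182 and 182 FPKM in the PRDM16 libraries. Its PRDM16 libraries were close together and just above control vector replicate 1, and the log2 change was 0.24 (SE 0.15, limma adjusted p = 0.689). KIF11, the motor that pushes spindle poles apart (chromosome 10, 92593286 to 92655395, plus strand), had the deepest gap, at 21.4 and 12.2 FPKM against 19.5 and 22.7 FPKM. Groups overlapped for KIF11, and the log2 change of 0.36 (SE 0.28, limma adjusted p = 0.693) was -0.023 without control vector replicate 2. KIF2C, a microtubule-depolymerizing motor, was 54.4 and 42.5 FPKM against 57.8 and 61.4 FPKM, and KIF23, a motor of the central spindle, was 49.0 and 38.5 FPKM against 51.3 and 52.5 FPKM. In both of these genes the PRDM16 libraries lay above both controls, with log2 changes of 0.30 and 0.25 that did not pass (limma adjusted p = 0.689 for each). TPX2, NUSAP1, HMMR, DLGAP5 and KIF20A had overlapping groups, with levels between 27.7 FPKM (KIF20A in control vector replicate 2) and 119.7 FPKM (TPX2 in PRDM16 replicate 2).

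The cytokinesis genes ANLN and ECT2 were lower in both PRDM16 libraries than in control vector replicate 1. ANLN, which encodes the contractile ring scaffold anillin (chromosome 7, 36389806 to 36453791, plus strand), was 120.4 and 70.2 FPKM in the control vector libraries and 109.8 and 107 FPKM in the PRDM16 libraries. The log2 change of ANLN was 0.24 (SE 0.27, limma adjusted p = 0.758) with all libraries and -0.15 without control vector replicate 2, the most negative value of the 38 in that setting. ECT2, which activates RhoA at the division site, ranged from 54.1 to 72.8 FPKM.

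Both transcription factors that switch on the G2 wave were highest in control vector replicate 1 and lowest in control vector replicate 2. MYBL2, which encodes B-MYB (chromosome 20, 43667019 to 43716496, plus strand), was 113 and 66.7 FPKM in the control vector libraries and 103 and 113 FPKM in the PRDM16 libraries. Its low value in control vector replicate 2 pulls down the mean of the controls, and the log2 change of 0.31 (SE 0.27, limma adjusted p = 0.711) became -0.071 without that library. FOXM1 was between 72.9 and 101 FPKM and had overlapping groups. MKI67, which encodes the Ki-67 marker of cycling cells (chromosome 10, 128096659 to 128126385, minus strand), was 56.6 and 34.4 FPKM against 51.8 and 60.3 FPKM, with a log2 change of 0.33 (SE 0.26, limma adjusted p = 0.693). TOP2A, the topoisomerase that untangles sister chromosomes (chromosome 17, 40388516 to 40417950, minus strand), was 96.3 and 71.9 FPKM against 92.1 and 92.4 FPKM, with a log2 change of 0.15 (SE 0.16, limma adjusted p = 0.749). In all 4 of these genes control vector replicate 2 was the 1 low value. Control vector replicate 1 lay above both PRDM16 libraries for MYBL2 (where it was level with PRDM16 replicate 2 after rounding), FOXM1 and TOP2A, and between them for MKI67.

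FPKM are scaled to length, so levels of genes whose products work as partners can be set side by side within a library. The ratio of NDC80 to NUF2 was 1.02 and 0.953 in the control vector libraries and 1.02 and 1.11 in the PRDM16 libraries. For AURKA to its activator TPX2 the ratio was 0.682 and 0.700 in the control vector libraries and 0.677 and 0.666 in the PRDM16 libraries. CCNB1 stood to CDK1 at 2.05 and 2.28 in the control vector libraries and 2.05 and 1.94 in the PRDM16 libraries, highest in control vector replicate 2. CCNA2 went the other way, lowest in that library. Its ratio to CDK1 was 0.783 and 0.711 in the control vector libraries and 0.809 and 0.764 in the PRDM16 libraries. The ratio of CDC25B to CDC25C, whose genes left the common pattern, was 8.88 and 10.8 in the control vector libraries and 9.95 and 9.38 in the PRDM16 libraries. These pairs were picked after the values were seen, other pairs computed are not shown, and no test was made on them.

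Most other genes of mitosis also had a higher mean in PRDM16. Of 20 tested kinetochore genes outside the set, 19 had a higher mean in PRDM16, with a median log2 change of 0.25 that was 0.0072 without control vector replicate 2. ZWINT among them was 97.0 and 46.7 FPKM against 86.3 and 107 FPKM, while BUB3, a checkpoint gene, was 125 and 107 FPKM against 138 and 146 FPKM. All 8 condensin genes, which compact chromosomes, were higher on average (median 0.21), and 0 of 8 without control vector replicate 2 (median -0.093). SMC4, the most abundant condensin gene, was 111 and 82.9 FPKM against 98.0 and 107 FPKM, and NCAPD3 was 23.0 and 13.6 FPKM against 21.9 and 22.1 FPKM. Another 28 spindle and cytokinesis genes were all higher on average (median 0.21), and 13 of 28 without that library (median -0.016). CKS2, a small CDK-binding protein gene, was 259 and 214 FPKM against 258 and 289 FPKM, while TACC3, a spindle gene, was 94.9 and 65.0 FPKM against 93.8 and 103 FPKM. None of the genes in these lists, or in the others below, had a limma adjusted p under 0.05.

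Lists of other cell cycle regulators were more mixed in direction. Of 12 tested APC/C core genes with FZR1, 8 were higher and 4 lower (median 0.081), and control vector replicate 2 was the lowest library for 6 of 12. Without that library 4 of 12 were higher (median -0.0094). ANAPC16 was 58.0 and 71.1 FPKM against 56.4 and 59.1 FPKM, and CDC23 was 23.3 and 21.2 FPKM against 25.3 and 29.2 FPKM. Among 10 MuvB and DREAM genes 7 were higher (median 0.13), and again 7 without control vector replicate 2 (median 0.042). RBBP4 was 54.2 and 45.0 FPKM against 53.2 and 57.1 FPKM and TFDP1 was 46.2 and 27.5 FPKM against 46.2 and 50.6 FPKM. For 5 brakes on G2 entry in loci of 1 gene the median was -0.14, with 2 higher and 3 lower, and -0.019 without control vector replicate 2. WEE1 and CHEK1 share loci with other genes and were left out of that list. CDKN1A, which encodes the CDK inhibitor p21, was 79.8 and 98.1 FPKM against 65.8 and 61.2 FPKM, lower in both PRDM16 libraries with a log2 change of -0.47 (SE 0.13, limma adjusted p = 0.689). Its level was highest in control vector replicate 2, at a distance of 0.51 from the mean of the other libraries on the log2(FPKM + 1) scale. SFN, which encodes the 14-3-3 protein that retains CDK1 in the cytoplasm, was low, at 1.10 and 1.71 FPKM against 2.93 and 2.47 FPKM, and GADD45A was 106 and 150.4 FPKM against 126 and 95.8 FPKM. The brakes did not share a direction in control vector replicate 2. Its distance was 0.47 for GADD45A, -0.059 for CHEK2, -0.18 for SFN and -1.09 for PKMYT1. Of 8 tested D cyclin, CDK4, CDK6 and CDK inhibitor genes 6 were higher (median 0.068), and 2 of 8 without control vector replicate 2 (median -0.095). CDKN1B, the p27 gene, was lower in both PRDM16 libraries at 25.03 and 24.3 FPKM against 20.7 and 20.7 FPKM, with an adjusted p by limma of 0.689, CCND1 was 324 and 350.3 FPKM against 376 and 335 FPKM and CCND3 was 42.9 and 21.4 FPKM against 41.8 and 46.2 FPKM.

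The library in which G2 and mitosis genes were low also differed in S phase and stress genes. DNA replication and S phase genes had a higher mean in PRDM16 in 25 of 25 tested cases, with a median log2 change of 0.45, and control vector replicate 2 was the lowest library for all 25. Its median distance from the mean of the other 3 libraries was -0.91 on the log2 scale for these genes, -0.43 for the G2 and mitosis members and -0.018 over all tested loci. MCM4, a subunit of the replication helicase, was 261 and 113 FPKM against 229.6 and 249 FPKM, and MCM10 was 14.6 and 5.72 FPKM against 15.5 and 17.7 FPKM. Genes of the ATF4 and unfolded protein responses, both stress pathways, lay the other way, with a distance of 0.95 and a lower PRDM16 mean for 14 of 14. DDIT4 was 349 and 636 FPKM against 406 and 274 FPKM and ATF3 was 9.23 and 17.5 FPKM against 9.73 and 6.23 FPKM, highest in control vector replicate 2 in both. Without that library the median log2 change was -0.010 for S phase genes and 0.17 for ATF4 and unfolded protein response genes. The part of either list in the low values of the mitosis genes was not tested.

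**Figure D4:**
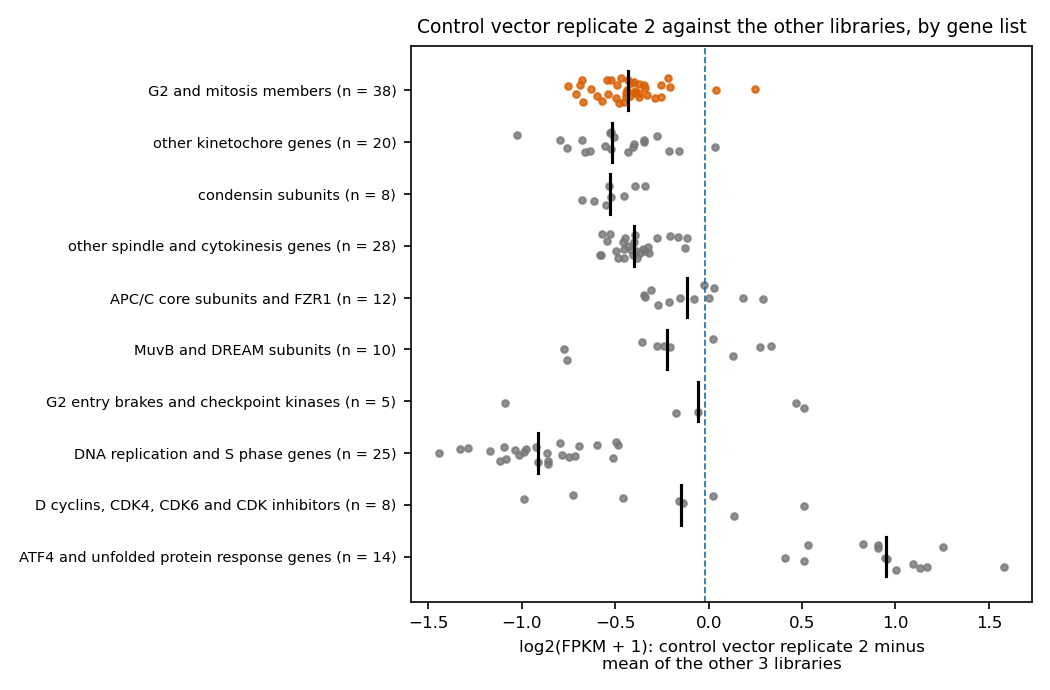
Log2(FPKM + 1) in control vector replicate 2 minus the mean of the other 3 libraries for each tested gene (points, spread vertically at random) of 10 gene lists; black bars are list medians and the dashed line is the median of all tested loci. The G2 and mitosis genes (orange) have a median of -0.43, DNA replication and S phase genes -0.91 and ATF4 and unfolded protein response genes 0.95. The dashed line is at -0.018, with the median of the G2 entry brakes at -0.059 (values from -1.09 to 0.51) and that of APC/C core genes at -0.12.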

How the data were processed

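Total RNA of 786-O cells (2 control vector and 2 PRDM16 libraries) was purified with Direct-zol columns and made into Illumina libraries, per the labels' protocols. The submitters' processing notes name hg38, Cuffdiff, Cufflinks 2.2.1, TopHat2 2.1.0 and Trim Galore. Which annotation, filters and library scaling were used, and whether strand was kept, is not stated there. The deposited values were taken as FPKM, a unit the header does not name, because they include fractions and their library totals run from 556213 to 574003. The number of reads behind them is unknown, so no counting interval is given.

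Groups follow the labelled vector. All loci with a mean of at least 1 FPKM over the 4 libraries (13246) were tested with limma 3.58.1 in R 4.3.3 on log2(FPKM + 1), with a variance trend, a two-sided moderated test and Benjamini-Hochberg adjustment over all of them (threshold 0.05). Log2 changes on this scale understate the change of low genes. With 2 against 2 libraries an exact permutation test cannot go below p = 0.333. On simulated data (13246 loci, 10 draws, 200 changed loci of at least 5 FPKM each) the test recovered 0.6% of log2 changes of 0.5, 46.2% of 1, 76.8% of 2 and 88.8% of 3, and no member changed by as much as 0.5. The members and gene lists were chosen with earlier results of these data known, so lists are described by counts and medians and not tested. Older symbols matched 3 list genes. Of the 40 members, 18 overlap an annotated gene on the opposite strand, whose reads may be included. Members with all 4 values in the text are, for each role, the highest mean and the largest rise and fall, any with groups that did not overlap and any in a locus of several names, 24 in all. From every other list the highest mean and the largest absolute log2 change were named. CDKN1A, CDKN1B, CHEK2 and PKMYT1 were added after their values were seen. Alternatives were a pseudocount of 0.1 or 0.5, a minimum mean of 5 FPKM or none, scaling by medians, by quantiles or by median of ratios, variances without a trend or made robust, a replicate block, leaving out each library, loci of several names and an adjusted p under 0.01. The count tools planned in case the table held counts were not run. Tables and plots used Python 3.11.15, numpy 2.4.6, pandas 2.3.3 and matplotlib 3.10.9.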

Additional observations from a re-analysis of the deposited data

How the results depend on the processing

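The number of loci called over the whole table was 3. It was 5 with a pseudocount of 0.1, with robust variances or with the replicate number as a block, 6 without a variance trend, and 1 without a filter on low values or at an adjusted p under 0.01. Leaving out 1 library gave 16 to 39. No member was called by limma in any of these settings. The members' median log2 change was 0.18 to 0.22 under the other pseudocounts, filters, scalings and variance models and with loci of several names. It was -0.011 to 0.42 when 1 library was left out, and the members with a higher mean then numbered 17 to 36, the lowest of both without control vector replicate 2. Of 24 named members, 11 changed direction without that library. Their log2 changes over the 4 settings that leave out a library ran from -0.15 to 0.62 for ANLN, from -0.0039 to 0.49 for BIRC5, from -0.068 to 0.45 for BUB1B, from -0.036 to 0.36 for CCNB1, from -0.24 to 0.0063 for CDC25B, from -0.023 to 0.74 for KIF11, from -0.018 to 0.68 for MKI67, from -0.071 to 0.68 for MYBL2, from -0.078 to 0.37 for PLK1, from -0.061 to 0.35 for TOP2A and from -0.022 to 0.25 for UBE2C. The labels do not say that replicate numbers pair the libraries, and deviations of same-numbered libraries had a correlation of -0.058 across all tested loci and -0.51 across the 38 members. The replicate block left the members' median at 0.21, with 5 loci called and 422 at an unadjusted p under 0.05, against 811 without it. With 2 libraries a group and no read numbers, the precision of single values is unknown.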
